A study of Mus musculus with 55 samples.

Results

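Oocyte growth factors and follicle communication genes were described as a set of 6 named genes: Gdf9, Bmp15, Bmp6, Fgf8, Kit and Gja4. They were taken by symbol from 33924 genes of one count table, and all 6 were found again by identical exon coordinates among 37310 features of a second. The series measured RNA G-quadruplexes, stacked structures of guanine runs, and the helicase DHX36 (also called RHAU) that unwinds them, in mouse oocytes. Gene counts of 24 polyA RNA libraries were used, out of 55 samples of the series. All 6 genes passed the filter on low counts in every comparison.

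The libraries were grouped here into 4 experiments, which the labels do not name as such. In growing oocytes, 3 Dhx36_sko libraries stood against 3 control libraries. The labels name Dhx36fl/fl;SKO mice as their source, without expanding SKO or naming the driver of the deletion, and give no age or strain. In the second experiment, rhau_sko_DRB (2 libraries) and rhau_sko (1 library) stood against c_DRB (1 library) and c (2 libraries); the label c is not expanded either. A further c_DRB and a further rhau_sko library, both under 200000 counts, were left out by the rule. DRB is a nucleoside analogue that inhibits the kinase CDK9 and with it transcript elongation. In GV oocytes, meaning fully grown oocytes with an intact germinal vesicle, 3 libraries labelled cPDS 12 h stood against 3 labelled GV_C. The GV_C titles name no time or vehicle, so an effect of cPDS and one of the 12 h cannot be told apart. cPDS is the usual short name of carboxypyridostatin, a ligand of RNA G-quadruplexes, and its dose is not given in the sources used here. The last experiment set 3 libraries labelled Dhx36, 3 h and Trim21 against 3 control libraries of 3 h. TRIM21 is a ubiquitin ligase that, together with an antibody, is used to degrade a chosen protein. Titles of the GV libraries and those of the second experiment begin with the same code, which the growing and Trim21 titles do not carry. What that code stands for is not stated. All samples are labelled oocyte from ovary, and nothing says whether replicates were separate animals or pools, so p-values measure only the spread between these libraries.

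GDF9 and BMP15 are ligands of the TGF-beta family that the oocyte secretes. They act on the receptor BMPR2 and its partners on granulosa cells and keep those cells dividing and cumulus cells from turning into mural granulosa. BMP6 is a further ligand of the family, and FGF8 works together with BMP15 to raise glycolysis in mouse cumulus cells. KIT is the receptor on the oocyte for KIT ligand from granulosa cells and signals through PI3K and AKT. Gja4 encodes connexin37, which forms the gap junctions through which granulosa cells feed the oocyte.

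Libraries held 7452742 to 65444652 counts, and the members had 399 counts (Fgf8 in rhau_sko_DRB replicate 7) to 649433 counts (Gdf9 in GV_cPDS_12h replicate 3). Dhx36 averaged 2.17 ± 0.58 normalised CPM (counts per 1000000 of the scaled library size) in Dhx36_sko and 8.77 ± 1.89 CPM in control growing oocytes (SD, n = 3 each). It ranged from 4.46 to 7.66 CPM in the 3 sko libraries of the second experiment, against 38.0 to 47.2 CPM in c and c_DRB. In the Trim experiment Dhx36 had 6.23 to 8.77 CPM with Trim21 and 29.6 to 32.0 CPM in its controls, while Trim21 itself had 7620 to 9310 CPM against 14.6 to 14.8 CPM. In GV oocytes Dhx36 was higher with cPDS, at 35.5 ± 3.7 CPM, against 21.5 ± 1.3 CPM in GV_C (SD, n = 3 each, edgeR adjusted p = 1.82e-05). All these values are RNA, and the counts do not measure DHX36 protein. A list of 16 oocyte genes held 0.791% to 3.07% of the counts of every library. Granulosa and cumulus markers (19 genes) summed to 0.134% to 0.148% of counts in growing Dhx36_sko libraries and 0.0871% to 0.0992% in growing controls, to 0.0546% to 0.0593% with cPDS and 0.0748% to 0.0774% in GV_C. Serpine2, a protease inhibitor, made up 81.8% or more of that sum in each group, and Amh and Foxl2, both typical of granulosa cells, had at most 0.156 CPM in growing and GV libraries. The part of these markers in the results below was not tested. In pooled RNA of this kind, fewer cells of a type and less RNA per cell cannot be told apart.

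Levels of the ligands were compared per kilobase of exon, with 1 scaling over the 18 libraries of the first table. Gdf9 (mm9 chr11:53244525-53251406, plus strand, 2031 exonic bases) was among the most abundant transcripts of the oocyte, at rank 5 to 91 per kilobase in the 24 libraries. Its level was 4238 ± 357 CPM per kb in Dhx36_sko and 4552 ± 383 CPM per kb in control growing oocytes, and 4367 ± 559 CPM per kb with cPDS and 2913 ± 482 CPM per kb in GV_C (SD, n = 3 each). The first 3 of these groups overlapped, while GV_C lay below them and the second experiment lower still, at 687 and 740 in rhau_sko_DRB, 1135 in rhau_sko, 1507 in c_DRB and 1381 and 1420 CPM per kb in c. Experiment and oocyte stage cannot be told apart in these steps.

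Bmp15 (mm9 chrX:5891225-5897839, minus strand, 3060 exonic bases) ranked 47 to 336. It was highest in growing oocytes, at 1641 ± 205 CPM per kb in Dhx36_sko and 2342 ± 254 in controls, then 1167 ± 99 with cPDS and 781 ± 66 in GV_C. No 2 of these 4 groups overlapped on this scale. The second experiment had 169 and 182 CPM per kb in rhau_sko_DRB, 282 in rhau_sko, 376 in c_DRB, and 377 and 387 in c. Fgf8 (mm9 chr19:45811288-45817405, minus strand, 1350 exonic bases) was scarcer than both, at rank 585 to 4096, and reached 139 ± 16 CPM per kb in growing controls. Bmp6 (mm9 chr13:38436995-38592183, plus strand, 3586 exonic bases) ranked 2546 to 5468, and had its lowest levels, 8.09 ± 0.78 CPM per kb in Dhx36_sko and 7.22 ± 1.83 in controls, in growing oocytes, below the 15.4 CPM per kb or more of every other library. Its exons overlap those of Txndc5 on the opposite strand over 236 bases, and since the strand setting of the counting is not given in the sources used here, its values are uncertain.

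Kit (mm9 chr5:75970941-76052747, plus strand, 5831 exonic bases) ranked 1520 to 3919. Its highest level was 40.5 ± 3.5 CPM per kb with cPDS, and no other group of the first table reached over 23.6 CPM per kb in any library. Gja4 (mm9 chr4:126988665-126991283, minus strand, 1685 exonic bases) ranked 188 to 769, at 403 ± 40 CPM per kb in Dhx36_sko and 522 ± 51 in control growing oocytes, and 191 ± 12 with cPDS and 237 ± 26 in GV_C. Of the groups of the first table, control growing oocytes had the highest mean of Gdf9, Bmp15, Fgf8 and Gja4 and the lowest of Bmp6.

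**Figure D1:**
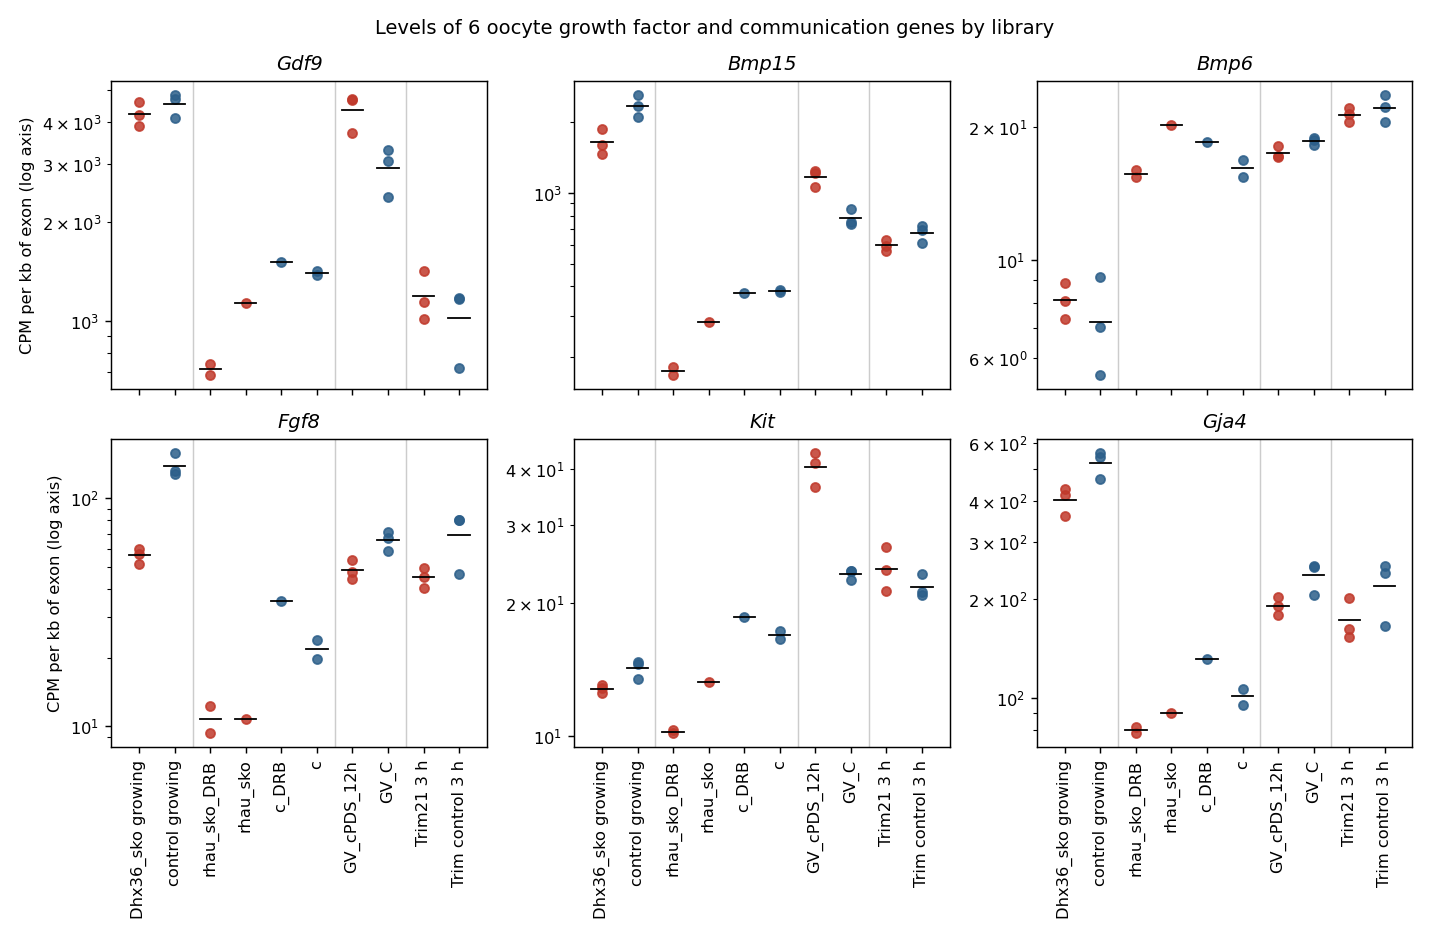
Level of each gene in CPM per kilobase of exon (log axis) for every library, with the group mean as a bar; the Trim groups were scaled apart from the rest. Gdf9 spans 687 to 4838 CPM per kb in the first table, and Bmp6 reaches at most 9.13 CPM per kb in growing oocytes.

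Promoter windows of 250 bases upstream of the start were read for the members that RefSeq's table holds (build GRCm38.p6, 4 of 6: Bmp15, Bmp6, Kit and Gja4; Gdf9 and Fgf8 are named only). Since the series is about guanine quadruplexes, 3 windows are shown for whether they carry 4 runs of GGG with gaps of 1 to 7 bases, on either strand; capitals mark the match. The Kit window is chr5:75574737-75574986 (plus), the Gja4 window chr4:127314040-127314289 (minus) and the Bmp15 window chrX:6320725-6320974 (minus), each printed on the gene's strand.
Kit: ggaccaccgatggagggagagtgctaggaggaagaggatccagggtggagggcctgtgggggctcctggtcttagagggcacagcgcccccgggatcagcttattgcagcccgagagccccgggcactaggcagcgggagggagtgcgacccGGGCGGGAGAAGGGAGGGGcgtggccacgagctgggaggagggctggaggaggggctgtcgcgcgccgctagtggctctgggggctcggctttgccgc
Gja4: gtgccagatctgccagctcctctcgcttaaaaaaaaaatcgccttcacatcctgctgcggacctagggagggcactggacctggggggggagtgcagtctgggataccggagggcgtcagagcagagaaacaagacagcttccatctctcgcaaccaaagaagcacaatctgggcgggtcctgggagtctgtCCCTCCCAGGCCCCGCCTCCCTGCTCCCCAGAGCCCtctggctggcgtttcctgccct
Bmp15: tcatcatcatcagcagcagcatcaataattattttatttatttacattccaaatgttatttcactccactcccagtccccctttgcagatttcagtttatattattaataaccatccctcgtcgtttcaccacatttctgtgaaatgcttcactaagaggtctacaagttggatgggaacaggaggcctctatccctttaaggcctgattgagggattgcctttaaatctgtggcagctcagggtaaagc
Kit held the pattern on the strand shown, 98 to 80 bases before the start of this window. A second annotated Kit start puts the same match 102 to 84 bases before it. Gja4 held it on the opposite strand, 58 to 23 bases before its start, and the capitals are therefore runs of C. Bmp15, printed for contrast, and Bmp6 had no match, and 16.6% of 32851 windows of this length had one. These windows are DNA outside the transcript, and a match is a run of letters and not a site.

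In growing oocytes, the question was what the loss of Dhx36 does to the transcriptome, and Fgf8 was the member that moved most. It had 60.3, 57.4 and 52.3 normalised CPM in Dhx36_sko oocytes, against 113, 120 and 143 CPM in control oocytes. Every sko library lay below every control library. The log2 change of Fgf8 was -1.14 ± 0.13 (SE), past the threshold in edgeR's quasi-likelihood test (adjusted p = 2.29e-06), and it stayed called in each of 10 alternatives.

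Bmp15 had 4245, 3648 and 3376 CPM in Dhx36_sko oocytes and 5219, 4809 and 4289 CPM in controls. The groups did not overlap, though sko replicate 4 and control replicate 3 were close. Its log2 change was -0.35 ± 0.13 (SE), a fall that edgeR called at an adjusted p of 0.0390. The call ended without control replicate 1 or 2 or sko replicate 5 or 6 (adjusted p up to 0.199), and with library size as the only scaling (log2 change -0.15, adjusted p = 0.225).

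Gdf9, the most abundant member, had 6972, 5900 and 6455 CPM in Dhx36_sko oocytes and 6451, 6423 and 5604 CPM in controls, and the groups overlapped (log2 change 0.06 ± 0.13 SE, edgeR adjusted p = 0.692). The receptor gene Kit had 56.8, 54.4 and 56.6 CPM in Dhx36_sko oocytes and 56.2, 52.8 and 57.0 CPM in controls, with a log2 change of 0.02 ± 0.12 (SE, edgeR adjusted p = 0.921). For both genes the sign of the change depends on the scaling, since the sko mean was the lower one on the 18-library scaling above. Gja4 ranged from 449 to 545 CPM in Dhx36_sko and from 524 to 617 CPM in controls (log2 change -0.21, edgeR adjusted p = 0.179). Bmp6 ranged from 19.6 to 23.8 CPM in Dhx36_sko and from 12.9 to 21.9 CPM in controls (log2 change 0.33, edgeR adjusted p = 0.121), beside a change of -1.09 for the overlapping Txndc5. Without control replicate 3 both were called, Bmp6 at 0.52 (edgeR adjusted p = 0.0125) and Gja4 at -0.30 (0.0479).

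Thus 2 of 6 members were called, both lower, where 53.7% of all 14081 genes tested were called (28.5% higher and 25.2% lower), and 60.9% had groups that did not overlap. The members' median log2 change was -0.10, beside 0.02 over all genes. With library size alone the median of all genes moved to 0.21 and 66.9% of calls were higher, against 53.1%, and Gdf9 (0.26, edgeR adjusted p = 0.0381) and Bmp6 (0.50, 0.0490) were then called higher.

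Genes of the pathways around the members were called in both directions in growing oocytes, as were all genes (28.5% higher and 25.2% lower), and nothing particular to a list is read from its counts. Of 14 tested receptors and SMADs of the TGF-beta family (19 listed), 3 rose and 4 fell (median log2 change 0.08). Tgfbr3, a co-receptor, rose to 182 ± 22 CPM in Dhx36_sko, against 57.6 ± 12.9 CPM in controls, and Smad3, which carries GDF9 signals into the nucleus, fell to 44.1 ± 5.2 CPM, against 96.1 ± 24.6 CPM (SD, n = 3 each). Of 11 other ligands, antagonists and processing enzymes of the family, 3 rose and 2 fell, and among those with a mean log2 CPM of 2 or more the proprotein convertase genes Furin (log2 change 0.79) and Pcsk6 (-0.67) changed most. Of 12 FGF pathway genes 4 rose and 3 fell. Fgf7, another FGF ligand, rose to 23.7 ± 2.3 CPM, against 5.93 ± 1.31 CPM, while Spry4, a feedback inhibitor of FGF signalling, fell to 98.2 ± 16.5 CPM, against 207 ± 22 CPM in controls.

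Of 29 genes of the KIT and PI3K pathway 8 rose and 7 fell. Rptor, a subunit of the kinase complex mTORC1, rose by 1.26 ± 0.24 and Foxo1, a transcription factor that AKT inactivates, changed by -1.24 ± 0.21 (log2 change ± SE). Kitl, the ligand of KIT, was looked up for its link to Kit after its values were seen, and it also rose (0.76 ± 0.16, edgeR adjusted p = 0.00102). Of 20 junction genes 2 rose and 4 fell, with Cdh1, encoding E-cadherin, at 16.0 ± 1.0 CPM in Dhx36_sko and 42.0 ± 7.8 CPM in controls. Beside these, 6 of 11 tested granulosa markers rose, with the largest rise in the receptor gene Fshr at 37.1 ± 1.7 CPM, against 0.342 ± 0.088 CPM in controls. Fshr made up 2.80% of the marker sum in Dhx36_sko and 0.0339% in controls.

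In the second experiment, the sko libraries were compared with c libraries across DRB, which entered the model as a term. Fgf8 again had the largest change of the 6. It had 17.4 and 22.5 CPM in rhau_sko_DRB and 19.0 CPM in rhau_sko, against 60.0 CPM in c_DRB and 33.2 and 39.9 CPM in c. All sko libraries lay below all c libraries, and Fgf8 fell by 1.27 (log2, SE 0.18, edgeR adjusted p = 3.58e-04).

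Gdf9 had 1933 and 2052 CPM in rhau_sko_DRB and 3007 CPM in rhau_sko, against 3863 CPM in c_DRB and 3606 and 3478 CPM in c. It fell by 0.60 (log2, SE 0.13, edgeR adjusted p = 0.00585). The rhau_sko library without DRB was the closest to c, and the rhau_sko_DRB libraries were the lowest. Bmp15 showed the same order, with 714 and 762 CPM in rhau_sko_DRB and 1126 CPM in rhau_sko, against 1451 CPM in c_DRB and 1479 and 1431 CPM in c, and it fell by 0.67 (log2, SE 0.13, edgeR adjusted p = 0.00194). Kit ranged from 81.0 to 101 CPM in the sko libraries and from 120 to 137 CPM in the c libraries, and fell by 0.51 (log2, SE 0.12, edgeR adjusted p = 0.00825). Gja4 ranged from 180 to 198 CPM in the sko libraries and from 201 to 279 CPM in the c libraries, and fell by 0.35 (SE 0.12, edgeR adjusted p = 0.0486). Bmp6, at 75.4 to 94.8 CPM in sko and 69.1 to 84.0 CPM in c libraries, was not called (log2 change 0.14 ± 0.13 SE, edgeR adjusted p = 0.447).

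So 5 of 6 members were called lower, with groups that did not overlap, where 36.0% of 16784 genes were called (19.2% higher, 16.8% lower), and 48.2% did not overlap. The members' median log2 change was -0.55 and that of all genes 0.01. Of the list of 16 oocyte genes 2 rose and 8 fell in this experiment, with a median log2 change of -0.36. That list held 0.791% to 0.803% of counts in rhau_sko and rhau_sko_DRB libraries and 1.08% to 1.26% in c and c_DRB libraries. Its part in the members' change was not tested. In growing oocytes the same list did not move 1 way: 5 genes rose and 6 fell with sko, with a median log2 change of -0.03. The c_DRB group has 1 library, and without it 1 member stayed called, Fgf8; Gdf9 then changed by -0.24 (edgeR adjusted p = 0.160), Bmp15 by -0.38 (0.0554), Kit by -0.29 (0.187) and Gja4 by -0.11 (0.618). Gja4 was also lost without the DRB term (adjusted p = 0.0969) and without c replicate 2, rhau_sko_DRB replicate 7 or rhau_sko_DRB replicate 8 (edgeR adjusted p up to 0.0989 over these).

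**Figure D2:**
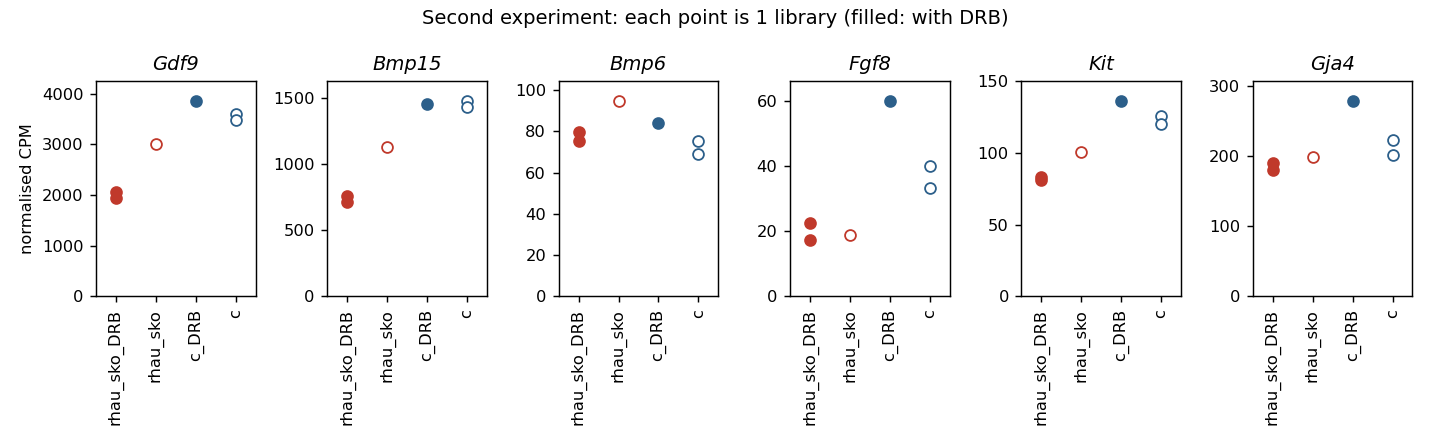
Normalised CPM of each gene in the 6 libraries of the second experiment (linear axes from 0; filled points had DRB, open points had none; sko libraries red, c libraries blue). For Gdf9, Bmp15, Kit and Gja4 the rhau_sko_DRB points are the lowest, with Gdf9 at 1933 and 2052 CPM.

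For the DRB term, edgeR called 2 of 16784 genes (0.0119%), and no member. The term averages over both genotypes and rests on 1 library each of c_DRB and rhau_sko. It therefore does not show how many genes DRB moved. DESeq2, which called 553 genes, called no member either. The largest log2 changes of members in edgeR were those of Fgf8 (0.41) and Bmp15 (-0.31), in opposite directions.  The DRB change in sko minus that in c was negative for all 6, from -0.48 for Kit to -0.75 for Gdf9 (log2, SE 0.15), and not called for any in edgeR. Gdf9 had an edgeR adjusted p of 0.250 (unadjusted p = 5.88e-04), and 0 members were called where 0.0330% of 18178 genes were. With DESeq2 (adjusted p = 0.0351), with no filter on counts (edgeR, 0.00452) or without rhau_sko_DRB replicate 7 or 8 (0.0260 and 0.0201), Gdf9 was called. The interaction rests on 1 library each of rhau_sko and c_DRB and on 2 residual degrees of freedom. All 6 estimates share these libraries, so their common sign is not read as a result about the members.

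Around the members, 4 of 17 receptors and SMADs rose and 1 fell in sko, 1 of 13 other TGF-beta family genes rose and 3 fell, and 4 of 16 FGF pathway genes rose and 3 fell, beside 36.0% of all genes called. Tgfbr3 (99.7 ± 37.9 CPM in sko and 33.6 ± 1.6 CPM in c libraries) rose and Smad3 (50.2 ± 8.6 CPM in sko and 84.0 ± 7.7 CPM in c libraries) fell. Fgf7 also rose, to 38.9 ± 6.6 CPM, against 9.66 ± 1.43 CPM in c libraries (SD, n = 3 each), and Fgf1, a further FGF ligand, changed by -1.10 ± 0.26 (log2, SE). Pcsk6 changed by -2.28 ± 0.28. Of 29 KIT and PI3K genes 6 rose and 5 fell, with the cell cycle inhibitor gene Cdkn1b (1.56 ± 0.20) and the kinase gene Akt1 (-0.81 ± 0.26) at the ends. Of 21 junction genes 6 rose and 3 fell, and Cdh3, encoding P-cadherin, had the largest rise (2.48 ± 0.15). Granulosa markers summed to 0.0810% to 0.0955% of counts in sko libraries and 0.0713% to 0.0784% in c libraries, and 4 of 12 tested rose.

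The sko change was set against itself between the experiments in 1 model of 12 libraries. The change in growing oocytes minus that in the second experiment was 0.69 ± 0.20 for Gdf9 (log2, SE, edgeR adjusted p = 0.0251) and 0.55 ± 0.17 for Kit (adjusted p = 0.0417), where 12.5% of 17437 genes were called (60.8% of them higher, against 82.7% with library size alone and 45.2% with DESeq2). For Bmp15 it was 0.36 (adjusted p = 0.263), and Bmp6, Fgf8 and Gja4 had 0.22, 0.16 and 0.17 (edgeR adjusted p from 0.610 to 0.715). For Gdf9 the call ended without any of 7 of the 12 libraries, the furthest being c_DRB replicate 3 (0.31, adjusted p = 0.417), and for Kit without any of 10 (0.31, adjusted p = 0.413 without the same library). Oocyte stage, experiment and what the label c stands for cannot be told apart in this difference.

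In GV oocytes, libraries labelled cPDS 12 h were compared with GV_C, whose titles give no time. Kit rose most. It had 233, 264 and 276 CPM with cPDS, against 149, 151 and 143 CPM in GV_C. The lowest cPDS library lay well above the highest GV_C library, and Kit rose by 0.80 (log2, SE 0.07, edgeR adjusted p = 2.24e-07).

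Both abundant ligands rose too, relative to the other RNA counted. Gdf9 had 8264, 10425 and 10367 CPM with cPDS and 7261, 5304 and 6751 CPM in GV_C, a log2 change of 0.59 ± 0.10 (SE, edgeR adjusted p = 1.62e-04). Bmp15 had 3523, 4137 and 4037 CPM with cPDS and 2834, 2478 and 2496 CPM in GV_C, a log2 change of 0.58 ± 0.07 (adjusted p = 4.63e-06). In each case the groups did not overlap, with cPDS replicate 1 the lowest of the treated libraries.

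Fgf8 and Gja4 went the other way. Fgf8 had 78.7, 65.0 and 69.8 CPM with cPDS and 97.4, 87.5 and 105 CPM in GV_C, and it fell by 0.44 (log2, SE 0.09, edgeR adjusted p = 6.50e-04). Gja4 had 375, 351 and 329 CPM with cPDS and 459, 383 and 460 CPM in GV_C, and fell by 0.30 (log2, SE 0.08, edgeR adjusted p = 0.00442). The 2 groups of Gja4 were separated by GV_C replicate 2 at 383 and cPDS replicate 1 at 375 CPM. Bmp6, at 68.6 ± 2.3 CPM with cPDS and 72.8 ± 1.9 CPM in GV_C (SD, n = 3 each), was not called (log2 change -0.09, adjusted p = 0.335), although the overlapping Txndc5 changed by -1.92.

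With 3 members higher and 2 lower, 5 of 6 were called where 50.8% of 16115 genes were called (23.4% higher, 27.4% lower) and 58.1% did not overlap. Their median log2 change was 0.25, beside 0.01 over all genes. Each of these calls stood in all 11 alternatives.

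**Figure D3:**
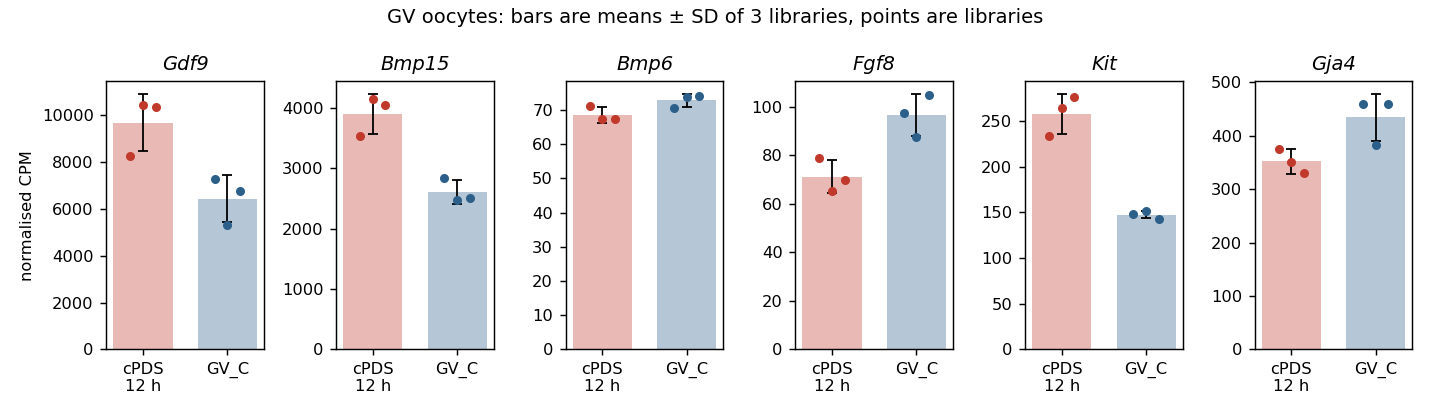
Normalised CPM in GV oocytes with cPDS for 12 h (red) and in GV_C (blue), as means ± SD of 3 libraries with each library as a point (linear axes from 0). Gdf9, Bmp15 and Kit are higher with cPDS, Fgf8 and Gja4 lower, and Bmp6 at 68.6 and 72.8 CPM was not called.

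After cPDS, 6 of 16 tested receptors and SMADs were called higher and 2 lower, a share close to the 50.8% of all genes. Bmpr1a, a type I BMP receptor, rose to 50.6 ± 8.5 CPM, against 31.8 ± 0.8 CPM in GV_C, and Acvr1, another type I receptor, fell to 4.53 ± 1.12 CPM, against 6.37 ± 0.59 CPM. Of 14 other family genes 1 rose, the ligand gene Tgfb2 (1096 ± 19 CPM with cPDS and 685 ± 30 CPM in GV_C), and 4 fell, among them the convertase gene Pcsk5 (-0.86 ± 0.16, log2, SE). Of 16 FGF genes 2 rose, among them Fgfr2 (0.40 ± 0.09), and 1 fell.

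Of 29 KIT and PI3K genes 13 rose and 10 fell, and of 15 tested genes on the list of oocyte genes 8 rose and 5 fell, beside the 50.8% of all genes called. Akt1 fell to 3.50 ± 0.11 CPM with cPDS, against 15.3 ± 0.9 CPM in GV_C, and Rictor, a subunit of the complex mTORC2, rose to 82.1 ± 4.6 CPM, against 52.5 ± 0.5 CPM. Kitl, which is also on the granulosa list, rose slightly (10.1 ± 0.4 CPM with cPDS and 7.79 ± 0.89 CPM in GV_C). Of 21 junction genes 3 rose and 7 fell. Gja1, which encodes connexin43 and is also counted as a granulosa marker, fell to 2.42 ± 0.30 CPM with cPDS, against 5.88 ± 0.89 CPM in GV_C. Of 13 tested granulosa markers 2 rose and 4 fell.

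In the Trim experiment, no member was called after 3 h, where 11.5% of 14191 genes were. The largest change was that of Fgf8, with 66.6, 55.2 and 61.4 CPM with Trim21 and 107, 63.0 and 108 CPM in controls. Control replicate 2 lay inside the Trim21 range, and the log2 change was -0.60 ± 0.19 (SE, unadjusted p = 0.00730, edgeR adjusted p = 0.0586). Without control replicate 2 it was -0.82 (edgeR adjusted p = 4.56e-04), and Fgf8 was also called with DESeq2 (adjusted p = 0.0167) and with no filter on counts (4.07e-04). Gja4 had 339, 278 and 259 CPM with Trim21 and 399, 281 and 427 CPM in controls (log2 change -0.34, edgeR adjusted p = 0.207), with control replicate 2 again low, and was called without that library (-0.50, 0.0130).

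Gdf9 had 2868, 2084 and 2326 CPM with Trim21 and 2343, 1467 and 2385 CPM in controls, with overlapping groups (log2 change 0.23 ± 0.17 SE, edgeR adjusted p = 0.446). Bmp15 ranged from 1757 to 1929 CPM with Trim21 and from 1871 to 2176 CPM in controls (log2 change -0.16, adjusted p = 0.307). Kit (0.15) and Bmp6 (-0.04) were not called either (edgeR adjusted p = 0.485 and 0.877). The members' median was -0.10 and that of all genes -0.01. Of the pathway lists, 0 of 15 receptors and SMADs and 0 of 10 other family genes were called in edgeR or in DESeq2. In edgeR 3 and 1 of these had an unadjusted p under 0.05. The share of all genes at that threshold is not given here. Of 14 FGF genes 1 rose, of 29 KIT and PI3K genes 1 rose, and of 19 junction genes 1 rose and 1 fell. Fgf7 rose to 10.1 ± 1.1 CPM with Trim21, against 0.682 ± 0.187 CPM in controls (SD, n = 3 each). Pdk1, a mitochondrial kinase gene on the KIT and PI3K list, rose by 1.51 ± 0.29, and Myo10, whose myosin builds the projections between granulosa cells and oocyte in mouse, by 1.28 ± 0.17 (log2, SE). Of 7 tested granulosa markers 1 rose, Cyp19a1 (43.7 ± 3.7 CPM with Trim21 and 23.8 ± 1.1 CPM in controls). Of 15 tested oocyte genes 1 fell, Ddx4 (95.6 ± 18.8 CPM with Trim21 and 262 ± 52 CPM in controls).

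**Figure D4:**
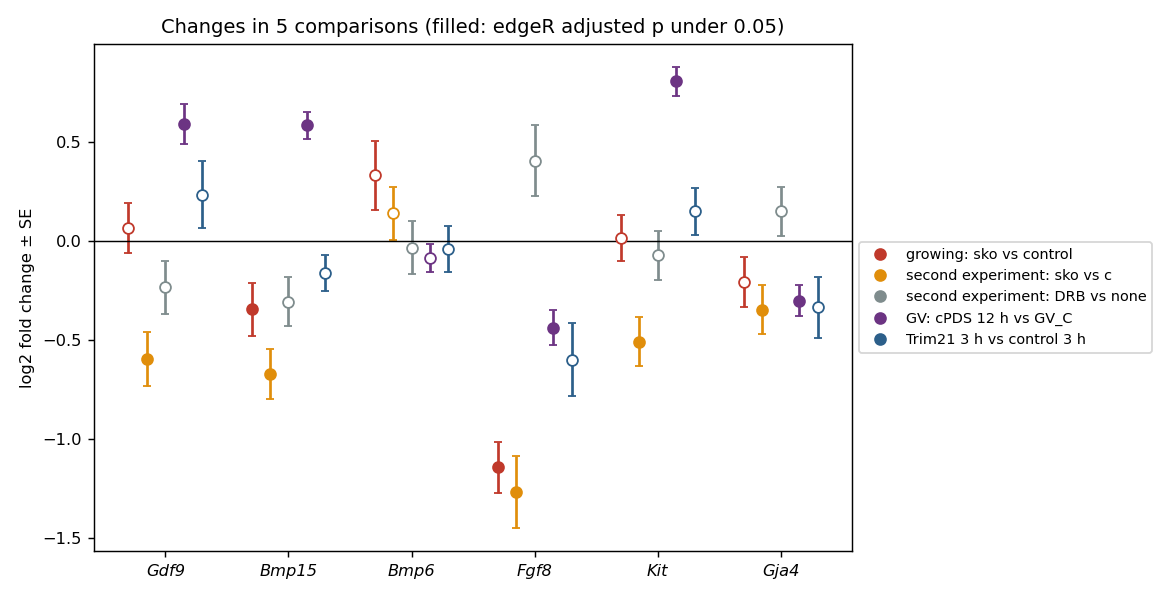
Log2 change ± SE of the 6 genes in 5 comparisons, filled where the edgeR adjusted p was under 0.05. Fgf8 is below 0 in the sko, cPDS and Trim21 comparisons (-1.14, -1.27, -0.44 and -0.60, the last not called) and at 0.41 for DRB, also not called, and Kit is highest with cPDS at 0.80.

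Ratios between members within a library do not depend on how libraries are scaled, and were chosen after the values were seen. Gdf9 over Fgf8, per kilobase, was 75.7 ± 6.9 in Dhx36_sko and 33.2 ± 6.3 in control growing oocytes, 91.7 ± 19.4 with cPDS and 44.2 ± 4.8 in GV_C, and 26.3 ± 2.0 with Trim21 and 14.9 ± 0.5 in its controls (SD, n = 3 each). In all 3 pairs the groups did not overlap. Of single genes, 60.9% in growing and 58.1% in GV oocytes did not overlap either, and no share over all ratios is given here. All ratios named here share Gdf9, so they are not separate results. In the second experiment they did, at 60.5 to 105 in the sko libraries and 42.8 to 72.1 in the c libraries. Gdf9 over Gja4 separated the same 3 pairs, at 10.5 ± 0.4 in Dhx36_sko and 8.72 ± 0.13 in control growing oocytes, 23.0 ± 4.2 with cPDS and 12.3 ± 0.8 in GV_C, and 6.89 ± 0.62 with Trim21 and 4.61 ± 0.27 in its controls. In the second experiment it overlapped and lay the other way, at 8.45 to 12.6 in the sko libraries and 11.5 to 14.9 in the c libraries.

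Gdf9 over Bmp15 was 2.60 ± 0.25 in Dhx36_sko and 1.95 ± 0.08 in control growing oocytes, and 1.98 ± 0.23 with Trim21 and 1.50 ± 0.28 in controls, with no overlap in either pair. With cPDS it was 3.73 ± 0.18 and in GV_C 3.72 ± 0.44, and the groups overlapped. Gdf9 over Kit overlapped in all 3 pairs, at 330 ± 21 in Dhx36_sko and 320 ± 34 in growing controls and 108 ± 6 with cPDS and 126 ± 22 in GV_C, with the Trim groups overlapping as well (exact permutation p from 0.4 to 0.8). Gdf9 over Bmp6 overlapped in the growing and Trim pairs (exact permutation p of 0.4 and 0.6) and separated in GV oocytes, at 250 ± 39 with cPDS and 156 ± 28 in GV_C. Each of the separated ratios had an exact two-sided permutation p of 0.1, the smallest that 3 against 3 allows, or 0.167 adjusted over 15 ratio tests.

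**Figure D5:**
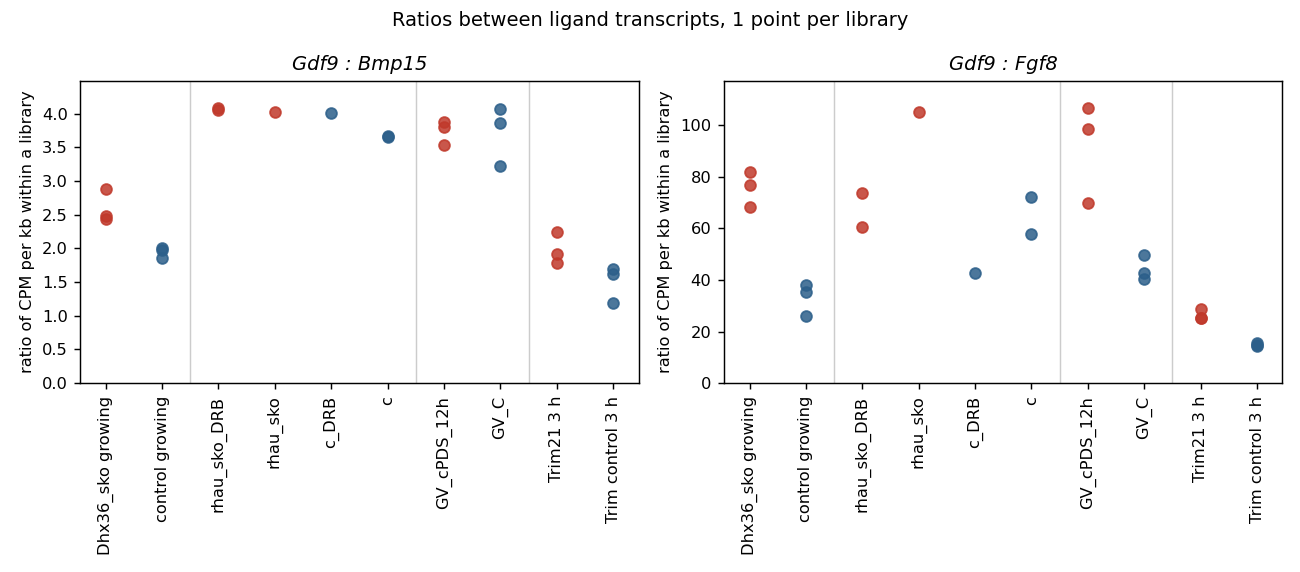
Gdf9 over Bmp15 (left) and Gdf9 over Fgf8 (right) in each library, as a ratio of CPM per kilobase (linear axes from 0; grey lines part the experiments). Gdf9 over Fgf8 is higher in Dhx36_sko, cPDS and Trim21 libraries than in their own controls, at 68.3 or more against 38.0 or less in growing oocytes.

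Genes with the most similar pattern were found over the 18 libraries of the first table, as the smallest root mean square difference of log2 CPM, each gene centred on its own mean, among 5825 genes. Nearest to Gdf9 were Arg2 (0.16), Mynn (0.22) and Acd (0.22), beside a median of 0.97 over all genes. Bmp15 lay nearest to Lass2 (0.18), Gm839 (0.19) and Zp3 (0.22), the last a zona pellucida gene. For Gja4 they were Smarcb1 (0.15), Mif4gd (0.16) and Tmem134 (0.17). Kit had Cnot1 (0.17), Tm9sf4 (0.17) and 5830415F09Rik (0.19), and Bmp6 had Pkp4 (0.17), Ubp1 (0.20) and Poldip3 (0.21). Fgf8 had more distant nearest genes, Smpd1 (0.27), Gm5134 (0.29) and Cpsf3l (0.29). Among the members themselves, Gdf9 and Bmp15 were 0.39 apart, Bmp15 and Gja4 0.44 and Fgf8 and Gja4 0.48, while Bmp15 and Bmp6 were 1.69 apart. These distances share libraries and depth and are dominated by the differences between experiments.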

How the data were processed

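Per the file headers, the authors deposited raw read counts per gene for RNA libraries of mouse oocytes, with exon coordinates. The submitters' processing notes name build mm9, the aligners STAR 2.5.2b and HISAT2 2.1.0, the trimmers cutadapt 1.15 and fastp 0.21.0, and the counter featureCounts 2.0.1, without saying which made these tables. Strand setting and treatment of multi-gene reads are not stated there. These steps can move counts of overlapping genes such as Bmp6.

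Rows of the second table were named by identical coordinates (33581 of 37310). Another deposited table repeats the first and was not used, nor were the other assays. Libraries under 200000 counts were left out (c_DRB replicate 4 with 129192 and rhau_sko replicate 6 with 127927 counts). Counts were tested in R 4.3.3 with edgeR 4.0.16: filterByExpr with a minimum count of 10, TMM factors, a quasi-likelihood test, and Benjamini-Hochberg adjustment over every tested gene (threshold 0.05). SE is |log2 change| divided by the square root of the F statistic. Growing, GV and Trim comparisons used their own 6 libraries. The second experiment was fitted with genotype and DRB terms, and the difference between experiments on 12 libraries. Normalised CPM use the scaled library size, and a prior count of 2 entered log2 CPM. All levels and changes are thus relative to the other RNA counted, and do not give RNA per oocyte. Alternatives were DESeq2 1.42.0, library size alone, no filter, a minimum count of 50, the covariate or replicate block, and leaving out each library. Leave-outs of the interaction were added after seeing the data. The fits were also run on simulated counts with known changes, as a check of the code. That simulation used the same spread for all genes, so it does not test the fits on these libraries.

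The members and lists were chosen with earlier results of these data known. List genes were named by rule: in each list, the called gene with the largest rise and the one with the largest fall, at a mean log2 CPM of at least 2. Not every gene so chosen is reported here. Replicate numbers shared by the GV groups and by the Trim groups are not stated to pair libraries, and were not read as pairs. Libraries of 1 group differed by more than counting noise in every group with replicates (chi-square over genes), so the spread between libraries, not depth, sets the error of these levels.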

Additional observations from a re-analysis of the deposited data

Results flagged for a closer look

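The change with sko differed between growing oocytes and the second experiment for 2 members by a test of the difference itself, in 1 edgeR model of 12 libraries. For Gdf9, growing minus second was 0.69 on the log2 scale (SE 0.20, adjusted p = 0.0251), and for Kit 0.55 (SE 0.17, adjusted p = 0.0417). Gdf9 changed by 0.06 in growing oocytes and by -0.60 in the second experiment, and Kit by 0.02 and -0.51. Each call ended when c_DRB replicate 3 was left out (0.31 for both, adjusted p = 0.417 for Gdf9 and 0.413 for Kit). No cause was tested, and oocyte stage and experiment cannot be told apart.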

How the results depend on the processing

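In GV oocytes every member kept its direction and its side of the threshold in all 11 alternatives, the replicate block included, and Fgf8 did so in both sko comparisons. Over all member results and alternatives, 401 were unchanged in direction and call, 15 gained a call, 31 lost one and 21 changed sign, the last all for values not called. Growing Kit changed sign with DESeq2 (-0.00130) and with no filter (-0.00579). The stricter filter left 1 member called in growing oocytes. DRB calls were 553 genes with DESeq2, 492 with no filter, 8 with the stricter filter and 0 without the genotype term (edgeR, 614 at an unadjusted p under 0.05). For the interaction, DESeq2 called 57 genes and no filter 272, with 1 member each. In the Trim comparison DESeq2 called 1 member, no filter 2 and the replicate block 1, Fgf8 (-0.57, adjusted p = 0.0199).

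Leaving out 1 library at a time gave 1 to 4 members called in growing oocytes. In the second experiment it gave 3678 to 6066 genes and 1 to 5 members for sko (3678 without c_DRB replicate 3, 4019 without rhau_sko replicate 5), 1 to 8 genes for DRB, and 30 to 217 genes and 0 to 1 members for the interaction. It gave 928 to 1936 genes and 0 to 2 members in the Trim comparison (928 without Trim21 replicate 3, 1043 without Trim21 replicate 1), and 1166 to 2510 genes and 0 to 2 members for the difference between experiments (1166 without rhau_sko replicate 5). A lone library of a group is then assumed to vary like the others.
Among members that changed sign in such a leave-out, the log2 change ran from -0.0325 to 0.0325 for Kit and from -0.0213 to 0.122 for Gdf9 in growing oocytes, from -0.149 to 0.388 for Bmp6 with sko in the second experiment, and from -0.0984 to 0.00813 for Bmp6 with Trim21. For DRB it ran from -0.116 to 0.396 (Gja4), -0.611 to 0.128 (Gdf9), -0.309 to 0.223 (Bmp6) and -0.316 to 0.153 (Kit), and for the difference between experiments from -0.0537 to 0.517 (Bmp6), -0.186 to 0.510 (Fgf8) and -0.0961 to 0.454 (Gja4). The cause of these changes was not tested. Deviations of same-numbered libraries had correlations of -0.06, -0.03 and -0.04 in GV and 0.07, 0.09 and -0.05 in Trim. Those of differently numbered libraries ran from -0.004 to 0.04 in GV and from -0.16 to 0.10 in Trim. With so few libraries per group these values cannot exclude pairing. The numbers were not read as pairs because nothing states that they are. The replicate block gave 7568 genes in GV, against 8191 without it, and 1767 in Trim, against 1630.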
